A study of Mus musculus with 2 samples.

Results

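Interferon-burst cells were the single cells of an osteoclast culture with the largest share of their transcripts in 6 interferon-induced genes at capture. For each cell a score was taken as the share of its UMIs (unique molecular identifiers, 1 per captured mRNA molecule) that fell in Ifit1bl1, Rsad2, Cxcl10, Gbp2, Cmpk2 and Ifit2. The burst cells were chosen by this score alone, as the highest-scoring 1.5% of the cells of each library. This gave 92 of 6101 control cells and 80 of 5312 mutant cells, 172 of 11413 cells in all, and the number per library was thereby set by the rule. Every other cell of the same library served for comparison and is called an other cell below.

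The cells came from a study of the chromatin remodeler ARID1A during osteoclast formation. Bone marrow cells were taken from mice aged 4 to 6 weeks and driven toward osteoclasts, the myeloid cells that resorb bone, with 50 ng/ml M-CSF (macrophage colony-stimulating factor) and 100 ng/ml RANKL (receptor activator of NF-κB ligand) in both groups. They were captured at 24 h after RANKL for single-cell RNA sequencing (scRNA-Seq) with 10x Genomics 3′ chemistry. The control group is labelled CONTROL, with no further allele given in the labels. The mutant group is LysM-Cre;Arid1afl/fl, in which Cre expressed from the lysozyme M (Lyz2) locus removes floxed exons of Arid1a in myeloid cells. Each group was 1 library, so no difference below has a replicate check, genotype and library cannot be told apart, and every interval is a 95% interval for counting error only.

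Type I interferons, of which interferon beta (Ifnb1) is one, are secreted when a cell senses foreign or misplaced nucleic acid. They bind the receptor made of IFNAR1 and IFNAR2 on the same or neighbouring cells, and the JAK kinases then activate a transcription factor complex that holds IRF9 and switches on interferon-stimulated genes through the interferon-stimulated response element (ISRE). In cultures of myeloid cells, few cells make interferon beta while many respond to it. Interferon beta made under RANKL is known as a brake on osteoclast formation.

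The 6 score genes have different roles in this response. Ifit1bl1 and Ifit2 belong to the IFIT family, which recognises foreign RNA and limits its translation. Rsad2 encodes viperin, a radical SAM enzyme that makes a chain-terminating nucleotide, and Cmpk2, its neighbour on chromosome 12, encodes a nucleotide kinase. Gbp2 encodes a guanylate-binding GTPase that attacks pathogen vacuoles. Cxcl10 encodes a chemokine that draws in T cells. In GRCm39 (GENCODE M39) Ifit1bl1 lies at chr19:34570291-34579356 on the minus strand and Ifit2 on the same chromosome at chr19:34527932-34554524 on the plus strand. Rsad2 lies at chr12:26492745-26506451 on the minus strand, Cmpk2 at chr12:26519203-26529836 on the plus strand, Gbp2 at chr3:142326349-142343779 on the plus strand and Cxcl10 at chr5:92494497-92496748 on the minus strand. Cxcl10 overlaps Art3, and Cmpk2 overlaps Gm60133, on the opposite strand.

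The promoters of 4 of the score genes and of Ifnb1 are shown for the motifs of the interferon and NF-κB pathways that their letters match. They were read from RefSeq promoters of build GRCm38.p6 as the 250 bases before the start site, 5′ to 3′ on the gene's own strand. Capitals mark a match to the ISRE-type motif GAAANNGAAA, searched on both strands. In the Ifnb1 promoter, which held no such match, they mark a match to the NF-κB motif. The windows are chr19:34601969-34602218 (minus) for Ifit1bl1, chr12:26456453-26456702 (minus) for Rsad2, chr5:92348890-92349139 (minus) for Cxcl10, chr3:142620413-142620662 (plus) for Gbp2 and chr4:88522795-88523044 (minus) for Ifnb1.
Ifit1bl1: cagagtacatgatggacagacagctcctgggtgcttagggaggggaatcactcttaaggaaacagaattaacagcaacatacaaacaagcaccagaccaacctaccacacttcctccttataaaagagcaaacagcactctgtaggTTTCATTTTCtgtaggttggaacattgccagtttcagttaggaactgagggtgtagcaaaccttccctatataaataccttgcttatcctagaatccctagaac
Rsad2: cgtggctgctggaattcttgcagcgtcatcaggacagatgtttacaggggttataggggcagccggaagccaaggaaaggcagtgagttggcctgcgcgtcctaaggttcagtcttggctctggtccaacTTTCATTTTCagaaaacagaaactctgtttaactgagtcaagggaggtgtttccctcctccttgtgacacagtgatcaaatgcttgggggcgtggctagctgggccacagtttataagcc
Cxcl10: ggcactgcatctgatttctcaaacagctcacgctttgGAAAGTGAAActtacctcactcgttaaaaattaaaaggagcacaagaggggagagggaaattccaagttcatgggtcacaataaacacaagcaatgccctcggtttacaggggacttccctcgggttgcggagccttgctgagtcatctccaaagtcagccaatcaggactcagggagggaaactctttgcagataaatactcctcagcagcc
Gbp2: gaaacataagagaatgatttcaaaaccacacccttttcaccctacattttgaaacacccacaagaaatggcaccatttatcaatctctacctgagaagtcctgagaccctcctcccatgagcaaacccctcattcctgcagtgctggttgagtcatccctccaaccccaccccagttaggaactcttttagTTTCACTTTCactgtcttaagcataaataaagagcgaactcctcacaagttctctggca
Ifnb1: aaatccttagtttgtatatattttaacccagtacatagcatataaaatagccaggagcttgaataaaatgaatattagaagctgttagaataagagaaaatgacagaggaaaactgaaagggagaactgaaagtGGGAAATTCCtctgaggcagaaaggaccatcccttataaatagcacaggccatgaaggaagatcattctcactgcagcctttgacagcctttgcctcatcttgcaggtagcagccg

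The ISRE-type match began 104 bases before the start site in Ifit1bl1, 120 in Rsad2, 213 in Cxcl10 and 59 in Gbp2, and overlapped neither of the other motifs searched. A second RefSeq entry for Ifit1bl1 held one 23 bases before its start site. Over windows of 300 bases (250 before to 50 after the start site), 3.44% of 32851 RefSeq promoters held the ISRE-type motif, 8.46% the NF-κB motif and 8.30% the GAS-type motif TTCNNNGAA. The windows of Cmpk2 and of both Ifit2 entries held no ISRE-type match. The Cxcl10 window held 3 NF-κB matches, and the Ifnb1 window held 1, starting 116 bases before the start site. A match is a description of the letters only.

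The libraries held 6455 control and 5865 mutant barcodes with 164004706 and 131800059 UMIs. After filtering, burst cells and other cells had similar depth in the control library (medians 24306 and 24266 UMIs), while in the mutant library burst cells were shallower (medians 19012.5 and 22448.5). The mitochondrial share was lower in burst cells, with medians of 1.78% against 2.07% (control) and 0.846% against 1.30% (mutant). The ribosomal protein share was also lower, at 20.3% against 21.9% and 12.6% against 16.2%. The part of these values in the differences below was not tested. A doublet caller marked 3 of 92 (3.26%) and 2 of 80 (2.5%) burst cells, against 5.48% and 5.22% of other cells. Of the 8 barcodes that both libraries shared, 0 belonged to a burst cell.

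The targeted gene was read first. Arid1a, the DNA-binding subunit of the canonical BAF complex, stood at 53.2 CPM (UMIs scaled to a total of 1000000) in control burst cells, 51.9 in other control cells, 22.2 in mutant burst cells and 20.3 in other mutant cells. It was lower in the mutant library in both kinds of cell, by a log2 ratio of −1.26 (−1.83 to −0.72) between burst cells. Burst cells and other cells of 1 library did not differ beyond counting error (log2 ratio 0.04, −0.22 to 0.28, for control cells and 0.13, −0.39 to 0.60, for mutant cells). Counting at the 3′ end still reads transcripts that lack internal exons, so these levels do not count recombined cells.

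The score formed a continuous tail in both libraries. In control burst cells it ran from 0.288% to 2.81% of a cell's UMIs with a median of 0.588%. In mutant burst cells it ran from 0.623% to 3.41% with a median of 1.05%. Other cells had medians of 0 and 0.0249%, and 3125 of 6009 control cells (52.0%) but only 457 of 5232 mutant cells (8.73%) had no UMI of any score gene. The cut fell within the tail. The lowest control burst cell scored 0.288% and the highest other cell 0.283%, and in the mutant library these values were 0.623% and 0.615%. At the control cut, 168 mutant cells (3.16%, 2.71 to 3.67) would have counted as burst cells, and at the mutant cut 43 control cells (0.705%, 0.511 to 0.948) would have.

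**Figure D1:**
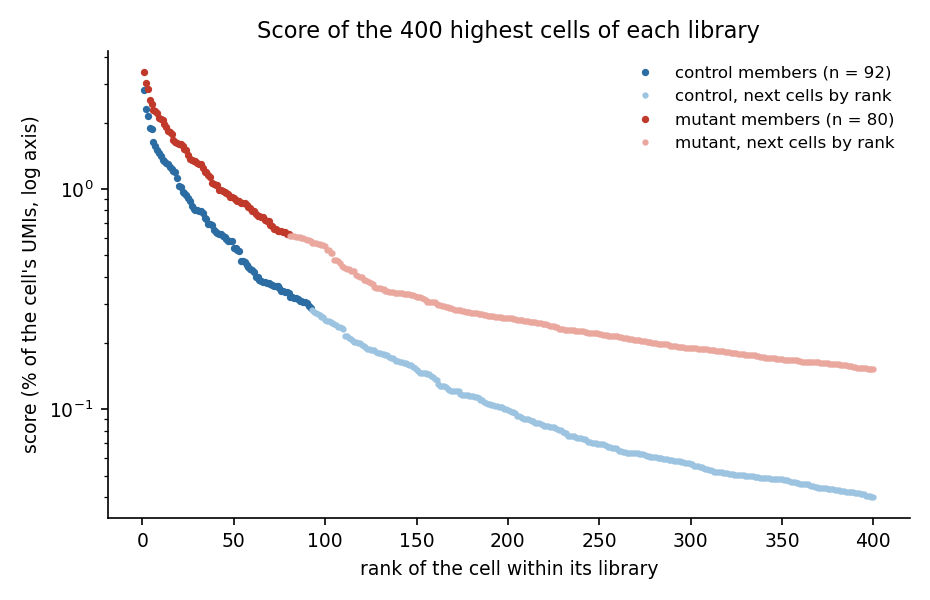
Score of each cell, as a percent of its UMIs on a log axis, against its rank within its library for the 400 highest cells; dark points are burst cells (members) and pale points the next cells by rank. Mutant cells lie above control cells of the same rank, and there is no gap at either cut.

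The levels of the 6 score genes chose the cells, so their values are a description. Cxcl10 stood at 5023 CPM in control burst cells, 57.5 in other control cells, 6038 in mutant burst cells and 273 in other mutant cells. Rsad2 stood at 1198, 14.5, 2363 and 65.8 CPM in the same order. Ifit1bl1 stood at 242, 1.25, 1193 and 8.33 CPM. Cxcl10 was therefore nearly level between the burst cells of both libraries (log2 ratio 0.27, 0.23 to 0.30), while Ifit1bl1 (2.30, 2.17 to 2.44) and Gbp2 (2.23, 2.08 to 2.38) were higher in mutant burst cells. The log2 ratio of mutant to control burst cells was 0.98 for Rsad2, 1.03 for Cmpk2 and 0.94 for Ifit2.

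The makeup of the score differed between the libraries. In 84 of 92 control burst cells Cxcl10 was the leading score gene, and it gave 66.9% of their score UMIs. It led in 63 of 80 in the mutant library and gave 49.6% there, while Rsad2 led in 12. Cxcl10 was detected in every burst cell, with medians of 108.5 and 99.5 UMIs per cell in the control and mutant library. Ifit1bl1 was detected in 44 of 92 (47.8%) and 67 of 80 (83.8%), with medians of 0 and 15 UMIs. All 6 genes were found together in 36 of 92 control and 63 of 80 mutant burst cells, against 9 of 6009 and 119 of 5232 other cells. In 2 control burst cells Cxcl10 was the only score gene found, and these held 7 and 5 UMIs of the interferon-stimulated gene Isg15. Free RNA in the droplets could be read in cells marked by neutrophil genes, 17 in the control library (median 8616 UMIs) and 75 in the mutant library (median 10828 UMIs), although neutrophils can make Cxcl10 themselves. Of these, 5.88% and 24% held a Cxcl10 UMI (5.51 and 166 CPM) and 0 of 17 and 2.67% an Ifit1bl1 UMI, at lower depth than the burst cells.

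Of the score transcripts of the filtered control library, the 92 burst cells carried between 31.3% (Gbp2) and 75.2% (Ifit1bl1), with 57.8% for Cxcl10. The 80 mutant burst cells carried 64.3% of Ifit1bl1 but between 15.4% (Ifit2) and 31.1% (Rsad2) of the other 5 genes, with 21.7% for Cxcl10. When each cell's UMIs were split at random into 2 parts and the score of 1 part chose the cells, 87 of 92 and 76 of 80 were burst cells of the full data as well. In the part not used for choosing, their median scores were 0.566% and 1.11%, and all of them lay above the 99th percentile of other cells (0.139% and 0.367%). Leaving Cxcl10 out of the score kept 68 of 92 (73.9%) and 58 of 80 (72.5%) burst cells, and leaving out any other gene kept 86 to 91 and 74 to 78.

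**Figure D2:**
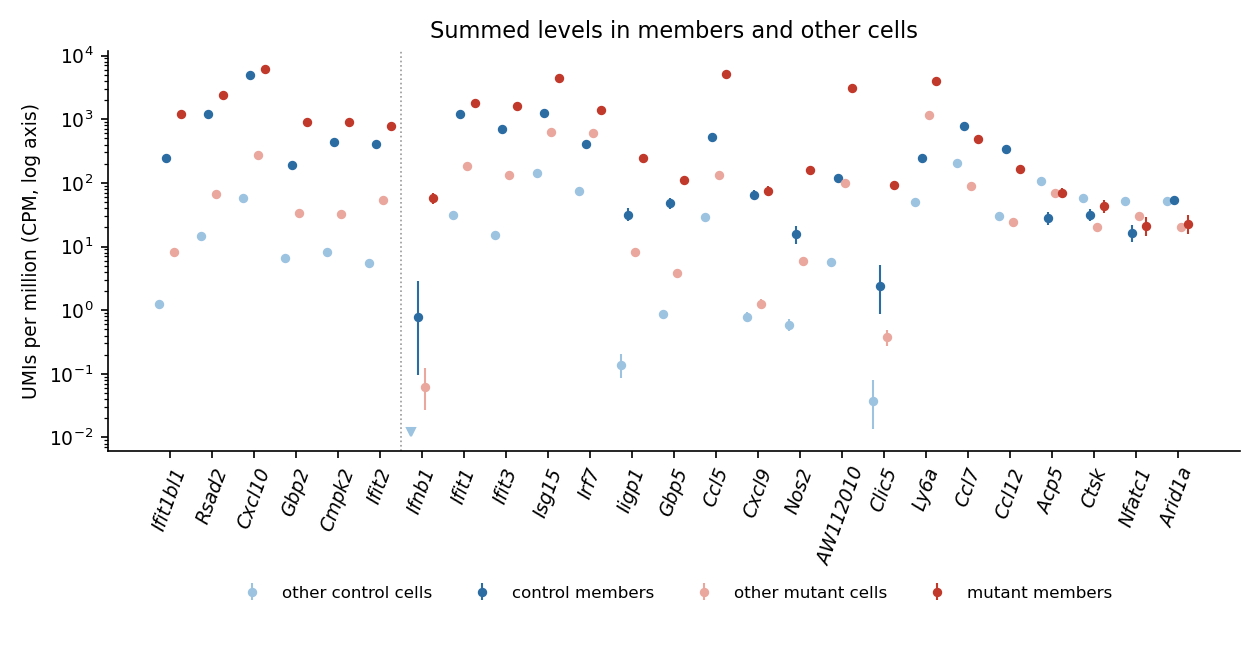
Summed level of 25 genes, in CPM on a log axis, in other and burst cells (members) of each library with 95% Poisson intervals; genes left of the dotted line made the score, and the triangle marks 0 UMIs of Ifnb1 in other control cells. Interferon-stimulated genes are higher in burst cells of both libraries, and Ifnb1 reached 56.8 CPM in mutant burst cells.

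The ligand itself was found almost wholly in mutant burst cells. Ifnb1 lies at chr4:88440262-88441011 (minus strand, GRCm39). Its UMIs were seen in 26 of 80 mutant burst cells (32.5%, 22.4 to 43.9) and in 6 of 5232 other mutant cells (0.115%, 0.0421 to 0.249). Control cells showed them in 1 of 92 burst cells, with 2 UMIs, and in 0 of 6009 other cells (3 cells in 6009, a share of 0.0499%, is taken as the limit that a count of 0 allows). Of the 100 Ifnb1 UMIs of the filtered mutant library, 92 lay in burst cells. The level was 56.8 CPM (45.8 to 69.7) in mutant burst cells and 0.0620 in other mutant cells, a log2 ratio of 9.84 (8.80 to 11.09). Among neutrophil-marked cells 0 of 75 mutant and 0 of 17 control cells had an Ifnb1 UMI, and among barcodes that failed the filters none had one. The other 19 interferon ligands on the list, among them the alpha, lambda and gamma interferons, had 0 UMIs in all 172 burst cells, which allows each at most 1.19 CPM in the control and 1.85 CPM in the mutant cells. Type I ligand genes other than Ifnb1 belong to a multigene family whose reads can be shared.

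Within the mutant burst cells, Ifnb1 followed the score, which is a description since the score chose the cells. It was present in 15 of the 20 cells with the highest scores, in 5 of the next 20, in 4 of the following 20 and in 2 of the last 20. Single cells held between 1 and 17 UMIs, with 1 UMI in 10 cells and 2 or more in 16. The 26 cells with Ifnb1 had a median score of 1.62% against 0.906% in the 54 without it, at median depths of 17716.5 and 19447.5 UMIs. Burst cells were therefore not all ligand-positive at this depth. The cell with the highest score of all (3.41%, 18701 UMIs) held 4 Ifnb1 UMIs with 173 of Rsad2 and 149 of Cxcl10. The next (3.05%, 15642 UMIs) held 12 Ifnb1 UMIs with 335 of Cxcl10 and 651 of Ccl5.

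The genes that differed most between mutant burst cells with and without Ifnb1 were picked after their values were seen. Several rested on 1 cell. Ccl4, a chemokine for monocytes and T cells, stood at 1995 CPM with and 236 CPM without Ifnb1 (log2 ratio 3.08, 2.88 to 3.28), but 1 cell held 693 of its 1105 UMIs in cells with Ifnb1, and without that cell the level there was 779 CPM. Ccl7 stood at 1069 and 183 CPM, and at 496 CPM with Ifnb1 without the cell that held 325 of 592 UMIs. Lipg, encoding endothelial lipase, stood at 128 and 6.57 CPM, and at 103 CPM without its highest cell. Tnfsf15, a TNF family ligand, stood at 70.4 and 4.69 CPM, the immediate early gene Egr1 at 70.4 and 3.75 CPM and Ptgs2, which encodes cyclooxygenase 2, at 86.7 and 10.3 CPM. Without the cell that held 26 of 39, 19 of 39 and 30 of 48 of their UMIs in cells with Ifnb1, these levels were 24.6, 37.8 and 34.0 CPM. Among the lowest in cells with Ifnb1 were the linker histone gene H1f5 (10.8 and 152 CPM), the ribonucleotide reductase subunit Rrm2 (5.42 and 61.0 CPM), the arginase gene Arg1 (3.61 and 39.4 CPM) and thymidylate synthase Tyms (7.22 and 67.5 CPM). Cells in the cycling gate, defined below, were 6 of 26 with Ifnb1 (23.1%, 8.97 to 43.6) and 19 of 54 without it (35.2%, 22.7 to 49.4), so the intervals overlapped.

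The question asked next was which genes outside the score set burst cells apart from other cells of the same library. Genes with a mean level of at least 20 CPM over the compared groups were read, and those that differed at least 2-fold were counted. A gene that reached this level only through the higher group had to differ. In the control library 170 of 5024 genes (3.38%) were higher and 13 (0.259%) lower in burst cells. In the mutant library 314 of 5195 (6.04%) were higher and 132 (2.54%) lower. The median log2 ratio over all genes was −0.064 and −0.16.

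The interferon-stimulated genes outside the score were higher as a group in both libraries. Of the 54 on the list, 51 were read in the control library, of which 45 were at least 2-fold higher and 0 lower, with a median log2 ratio of 2.09. Of the 52 read in the mutant library, 39 were at least 2-fold higher and 0 lower, with a median of 1.60. Since other genes of this response go with the score genes in a cell, these counts describe how far the score reached and are no independent support. The list was read per cell in the random split described above, for the 92 control and 80 mutant cells chosen by 1 part of the UMIs. Of these, 87 and 76 were burst cells of the full data. The list made up a median of 1.45% of UMIs in the chosen control cells against 0.565% in other cells, and 3.5% against 1.39% in the mutant library. Of the chosen cells, 67 of 92 control and 66 of 80 mutant cells lay above the 95th percentile of other cells.

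The highest genes of the list were close relatives of the score genes. Ifit1 stood at 1206 CPM in control burst cells, 31.8 in other control cells, 1826 in mutant burst cells and 182 in other mutant cells. Ifit3 stood at 705, 14.9, 1636 and 133 CPM in the same order. The smallest ratio in the control library was that of Ifi27l2a (log2 0.31, 0.25 to 0.36), which stood at 1034 CPM in burst cells and 836 in other cells. The smallest in the mutant library was that of Irf9, the DNA-binding part of that complex, at 69.1 and 52.0 CPM (log2 0.41, 0.13 to 0.68). The division of UMIs between the near-identical copies Ifit3 and Ifit3b is uncertain, and Ifit1 overlaps Ifit1bl2 on the opposite strand.

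Conjugation of the ubiquitin-like protein ISG15 was represented throughout. Isg15 itself stood at 1247 CPM in control burst cells, 144 in other control cells, 4434 in mutant burst cells and 626 in other mutant cells. It was detected in every burst cell, and in 29.4% and 70.7% of neutrophil-marked control and mutant cells. Usp18, which removes ISG15 and dampens receptor signalling, stood at 209, 17.5, 484 and 82.7 CPM. The ligase gene Herc6 stood at 87.0, 12.6, 183 and 46.2 CPM. All 6 genes of the list were at least 2-fold higher in control burst cells (median log2 ratio 1.98) and 5 of 6 in mutant burst cells (1.84), the exception being the conjugating enzyme gene Ube2l6 (0.96).

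The guanylate-binding proteins and immunity-related GTPases, which coat and break pathogen vacuoles, were among the lists with the highest medians. All 7 genes read in the control library were at least 2-fold higher (median log2 ratio 3.24), as were all 12 in the mutant library (2.74, beside 2.80 for the cytokine and surface list below). Genes read only through the level of burst cells, such as Gbp5, had to be higher. These counts and medians are therefore partly set by the filter, and the 2 medians cover different sets of genes. Iigp1 stood at 31.8 CPM in control burst cells, 0.137 in other control cells, 243 in mutant burst cells and 8.17 in other mutant cells. Gbp5, which promotes inflammasome assembly, stood at 47.7, 0.859, 112 and 3.84 CPM. Tgtp1 had the largest mutant ratio (54.9 and 0.333 CPM, log2 7.36, 6.82 to 7.92), but Tgtp1 and Tgtp2 are near-identical.

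Sensors of nucleic acid and of pathogens were higher in part. Of 14 genes read in the control library 11 were at least 2-fold higher (median log2 ratio 2.02), and in the mutant library 10 of 17 (1.27). Genes read only through burst cells, such as Ifi205 in the control library (69.9 and 1.57 CPM), had to be higher. These counts are therefore partly set by the filter, and the 2 medians cover different sets of genes. Ifih1, encoding the RNA sensor MDA5, stood at 92.9, 16.4, 285 and 55.8 CPM in control burst, other control, mutant burst and other mutant cells. Zbp1, a sensor of left-handed nucleic acid, stood at 114, 22.3, 453 and 188 CPM. Cgas, the cytosolic DNA sensor, stood at 46.5, 32.2, 40.7 and 42.3 CPM, and its level in mutant burst cells did not differ from other mutant cells beyond counting error (log2 −0.05, −0.43 to 0.30). Ifi205, of the Ifi200 family, had the largest ratios of the list (log2 5.48 and 4.82).

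The interferon receptor genes differed little, and some interferon regulatory factors differed more. Ifnar1 stood at 60.4 CPM in control burst cells, 48.7 in other control cells, 72.2 in mutant burst cells and 63.4 in other mutant cells, and its log2 ratios were 0.31 (0.07 to 0.54) and 0.19 (−0.09 to 0.45). Ifnar2, the other receptor chain, stood at 76.3, 63.9, 91.4 and 82 CPM. The kinase gene Jak2 stood at 25, 9.22, 51.2 and 19.3 CPM. Of 5 interferon regulatory factors read, 2 were at least 2-fold higher in the control library and 3 in the mutant library, and 0 lower. Irf7, which amplifies type I interferon production, stood at 405, 73.6, 1418 and 601 CPM. Irf1, a factor also induced by interferon gamma, stood at 35.7, 9.55, 148 and 23.1 CPM and was the gene of this list with the largest ratio in the mutant library (log2 2.67, 2.48 to 2.86). Irf8 lay above other cells in the control library (40.9 and 31.9 CPM) and below them in the mutant library (22.2 and 37.1 CPM, log2 −0.74, −1.26 to −0.27).

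Chemokines other than Cxcl10 separated into genes with both large and small ratios. Ccl5, which attracts T cells and monocytes, stood at 529 CPM in control burst cells, 29.3 in other control cells, 5174 in mutant burst cells and 133 in other mutant cells. It was found in 24 of 92 and 50 of 80 burst cells, against 0 of 17 and 8% of neutrophil-marked cells, and 1 control burst cell held 301 of the 1333 control UMIs. Cxcl9, a chemokine typical of the interferon gamma response, had the largest control ratio (65.1 and 0.778 CPM, log2 6.39, 6.04 to 6.74), but only 6 of 92 cells held it and 1 of them had 117 of the 164 UMIs. Ccl2, which draws monocytes, stood at 1971, 699, 2308 and 917 CPM. Cxcl2, a neutrophil chemokine, did not follow the burst, at 79.4, 96.4, 411 and 374 CPM. In both libraries 7 of 11 chemokines read were at least 2-fold higher (median log2 ratios 1.74 and 1.60).

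Other secreted and surface molecules of activated macrophages were higher too. Acod1, which makes itaconate, stood at 264, 14.5, 635 and 93.8 CPM, and Nos2, the inducible nitric oxide synthase, at 15.5, 0.585, 161 and 5.95 CPM. Cd274, the checkpoint ligand PD-L1, stood at 53.6, 13.1, 319 and 39.9 CPM, and Il15 at 66.3, 11, 141 and 21.3 CPM. Tnf was low in every group, at 11.5, 6.90, 28.4 and 12.2 CPM, and Il6 had 0 UMIs in both sets of burst cells. Genes of this list that were read only through burst cells also had to be higher. Of the list, 6 of 7 genes read were at least 2-fold higher in control and 10 of 10 in mutant burst cells. Few genes of NF-κB and its feedback passed 2-fold higher, with 0 of 14 (median log2 ratio −0.03) and 1 of 17 (0.28, the 1 being Bcl2a1b). The medians over all genes were −0.064 and −0.16. Beyond counting error 3 lay above and 3 below in control burst cells, and 9 above and 2 below in mutant burst cells. Nfkbia, the NF-κB inhibitor that NF-κB itself induces, stood at 401, 413, 523 and 484 CPM.

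Class I antigen presentation genes were read in both libraries. Of 13 genes read in the control library 6 were at least 2-fold higher (median log2 ratio 0.73) and in the mutant library 14 of 18 (1.57), which is a different set of genes. Over the 13 genes read in both libraries the medians were 0.73 and 1.11, and the log2 ratio was higher in the mutant library for 11 genes, 10 of them beyond counting error, and lower for 2, 1 of them beyond it. B2m, the invariant class I chain, stood at 1504 CPM in control burst cells, 1163 in other control cells, 5986 in mutant burst cells and 3499 in other mutant cells. The difference between the 2 log2 ratios was 0.40 for B2m (0.35 to 0.46) and 0.48 for H2-K1 (0.40 to 0.56), in counting error only. Tap1, the peptide transporter, went the other way (−0.38, −0.64 to −0.11). Class I heavy chain genes share sequence, so the division of UMIs between them is uncertain. Of the class II genes only Cd74 was read, at 17.5, 21.7, 106 and 61.6 CPM.

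**Figure D3:**
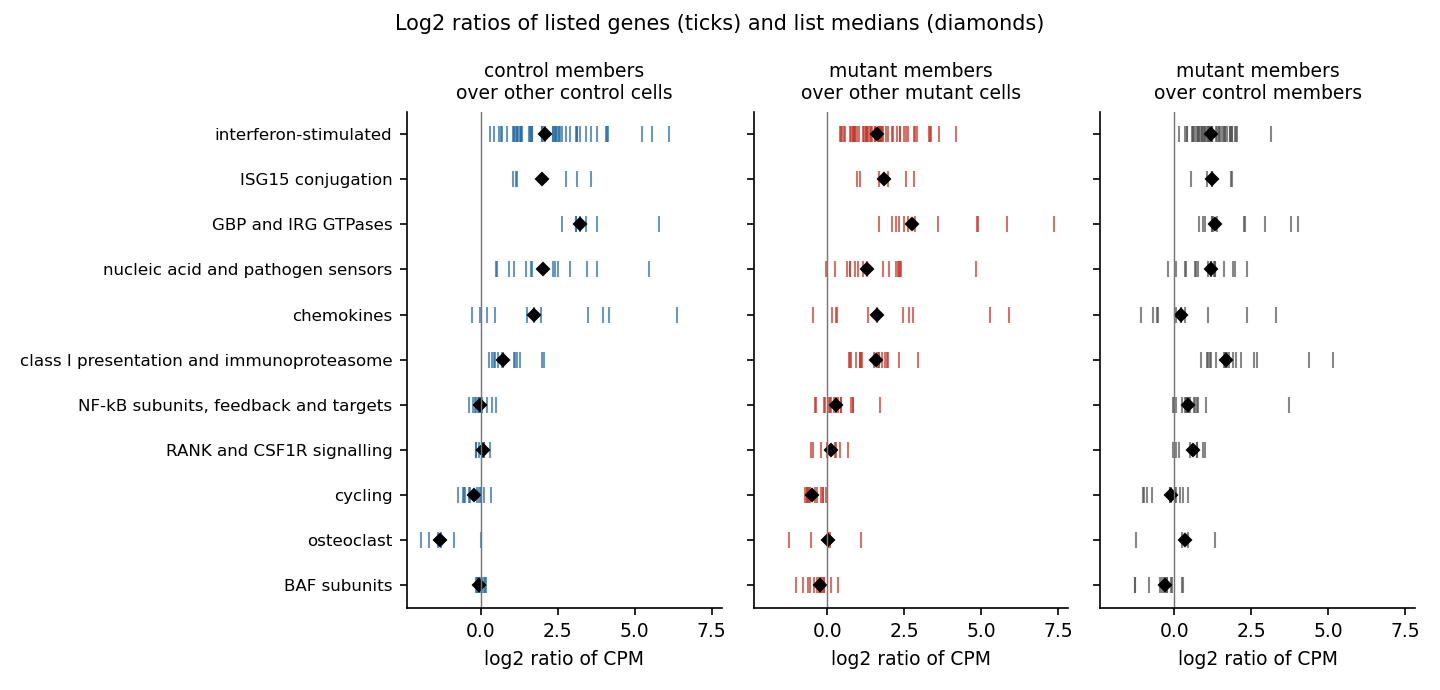
Log2 ratios of summed CPM for the genes of 11 lists (ticks) and the median of each list (diamonds) in 3 comparisons. Within each library, medians of interferon lists lie well above 0 and those of NF-κB, RANK and BAF lists between −0.24 and 0.28. The osteoclast median is −1.33 for control and 0.01 for mutant cells.

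Osteoclast genes were lower in control burst cells, and not as a group in mutant burst cells. Acp5, encoding the acid phosphatase TRAP, stood at 27.8 CPM in control burst cells, 106 in other control cells, 69.1 in mutant burst cells and 68.8 in other mutant cells. Nfatc1, the master factor of osteoclast formation, stood at 16.3, 52.3, 21.0 and 30.1 CPM, and Jdp2, an AP-1 family factor, at 59.6, 154, 25.3 and 60.7 CPM. Of the 6 osteoclast genes read in the control library 4 were at least 2-fold lower and 0 higher (median log2 ratio −1.33). Of 5 read in the mutant library 1 was lower (Jdp2, −1.26) and 1 higher (Ctsk, 1.08), with a median of 0.01. Ctsk, the collagen-degrading protease, stood at 31.4, 57.4, 42.6 and 20.2 CPM, and 1 control burst cell held 48 of its 79 UMIs. Acp5 and Nfatc1 overlap genes on the opposite strand.

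An osteoclast gate was also read per cell. A cell was counted when it held 3 or more UMIs in all of the genes Acp5, Ctsk, Dcstamp and Mmp9 together after thinning to 5000 UMIs. Of control cells, 3 of 92 burst cells (3.26%, 0.678 to 9.23) and 10.1% (9.35 to 10.9) of other cells passed. Of mutant cells, 3 of 80 burst cells (3.75%, 0.780 to 10.6) and 3.71% of other cells did. Without thinning, 14.1% of control burst cells and 28.2% of other control cells passed, as did 25% of mutant burst cells and 22.9% of other mutant cells. As a background, without Mmp9, which neutrophils express, 0 of 17 control and 1 of 75 mutant neutrophil-marked cells passed, against 2 of 92 (2.17%, 0.264 to 7.63) and 3 of 80 burst cells. Other cells without neutrophil marks passed at 7.21% and 3.39%, so without Mmp9 the control value of other cells lay within the interval of burst cells. Of 8 genes of RANK and CSF1R signalling 0 passed 2-fold in either library. Beyond counting error 3 lay above and 0 below in control burst cells, and 4 above and 2 below in mutant burst cells, from Csf1r (log2 −0.52) to Mitf (0.68). Tnfrsf11a, encoding RANK, stood at 63.6, 69.8, 106 and 88.7 CPM in the usual order.

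Burst cells included cycling and non-cycling cells. With a like gate over Mki67, Top2a, Aurka and Cdk1, 29 of 92 control burst cells (31.5%, 22.2 to 42.0) and 39.6% of other control cells passed. Among mutant cells 25 of 80 (31.2%, 21.3 to 42.6) and 34.0% passed, so both intervals included the value of other cells. Top2a stood at 263, 261, 239 and 277 CPM. Of 12 cycling genes 0 differed 2-fold in either library, with median log2 ratios of −0.22 and −0.48 beside −0.064 and −0.16 over all genes. Beyond counting error 1 lay above and 6 below other cells in control burst cells, and 0 above and 8 below in mutant burst cells. Cdkn1a, the cell cycle inhibitor, stood at 489, 177, 378 and 231 CPM and was the only one of 4 p53 targets read to be 2-fold higher, in the control library.

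Markers of the monocyte-macrophage list were present in burst cells. Of the 13 genes read in the control library, 10 lay above other cells and 0 below beyond counting error (median log2 ratio 0.32), and 1 passed 2-fold. In the mutant library 5 lay above and 5 below (median 0.08), and 2 passed 2-fold higher. Lyz2, encoding lysozyme, stood at 12200 CPM in control burst cells, 10775 in other control cells, 3501 in mutant burst cells and 5458 in other mutant cells, and Dab2, an endocytic adaptor, at 144, 152, 123 and 229 CPM. Csf1r, the M-CSF receptor, stood at 273, 256, 281 and 403 CPM in control burst, other control, mutant burst and other mutant cells, and Adgre1, encoding F4/80, at 184, 146, 599 and 533 CPM. Fcgr1, a high-affinity Fc receptor that interferon induces, stood at 183, 24.3, 758 and 127 CPM. Markers of stromal cells (4 of 4), mast cells (4 of 4) and erythroid cells (4 of 4) had 0 UMIs in both sets of burst cells. The T or NK cell list had 0 and 2 UMIs, the plasmacytoid dendritic list 2 and 0, the mature dendritic list 1 and 4, and the B cell list 3 and 10. The neutrophil list summed to 16.7 and 19.1 CPM in burst cells against 249 and 1891 CPM in other control and mutant cells. Neutrophil granule genes therefore led the lower end of both comparisons. S100a9 stood at 2.38 CPM in control burst cells, 103 in other control cells, 4.32 in mutant burst cells and 812 in other mutant cells, and Lcn2 had 0 UMIs in mutant burst cells against 58.1 CPM in other mutant cells. With neutrophil- and stromal-marked cells left out, the S100a9 log2 ratio went from −5.43 to 1.20 (−0.27 to 2.35) in the control library and from −7.55 to −0.095 in the mutant library. The interferon-stimulated median then stood at 2.11 and 1.62.

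Outside the lists, several more genes were far higher in mutant burst cells than in other mutant cells. Clic5, encoding an intracellular chloride channel protein, stood at 91.4 CPM in mutant burst cells and 0.372 in other mutant cells (log2 ratio 7.94, 7.46 to 8.44). It was found in 30 of 80 and 26 of 5232 cells. In the control library 1 of 92 burst cells and 4 of 6009 other cells held it. Mutant burst cells held 75.5% of the Clic5 UMIs and 81.2% of the Lipg UMIs of their library, but 43.4% of those of Flt1 and 27.5% of those of AW112010. Lipg stood at 48.2 and 0.140 CPM in mutant burst and other cells, and Flt1, a VEGF receptor, at 42.6 and 0.698 CPM. Fgl2, an interferon-induced fibrinogen-like protein, stood at 86.4 and 1.97 CPM. AW112010, annotated in RefSeq as a long noncoding RNA gene, stood at 118, 5.71, 3048 and 101 CPM in the usual order, and 1 control burst cell held 153 of its 298 UMIs there.

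**Figure D4:**
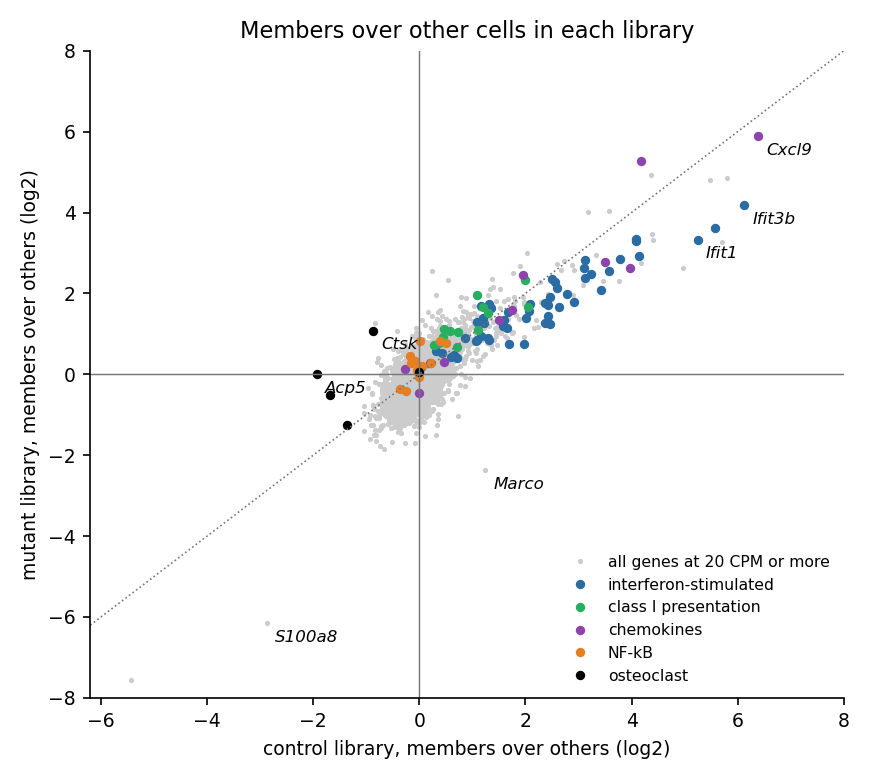
Log2 ratio of burst cells (members) to other cells for each gene at 20 CPM or more, control library on the x axis and mutant library on the y axis, with the line of equal ratios dotted. Most interferon-stimulated genes lie below the line, class I genes near or above it, and Acp5, Ctsk and Marco lie away from it.

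The burst cells of the 2 libraries were then compared with each other. Of 5011 genes read, 442 (8.82%) were at least 2-fold higher and 296 (5.91%) lower in mutant burst cells, with a median log2 ratio of −0.039. Of 52 interferon-stimulated genes 32 were higher and 0 lower, with a median of 1.18. The same list had a median of 1.52 between the other cells of the libraries, over the 49 genes read there, so the burst cells of the libraries were not further apart than their other cells by this measure. Isg15 differed by a log2 ratio of 1.83 between burst cells and 2.12 between other cells, and Irf7 by 1.81 and 3.03. For Ccl5 the order was the reverse, with 3.29 (3.21 to 3.37) between burst cells and 2.18 (2.13 to 2.23) between other cells.

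Of the lists with more than 1 gene read, surface proteins of the Ly6, Plac8 and Ms4a families had the highest median between the libraries. All 9 genes read were at least 2-fold higher in mutant burst cells (median log2 ratio 2.76), beside a median of 2.63 between other cells. Ly6a, the stem cell antigen Sca-1, stood at 244 CPM in control burst cells and 3984 in mutant burst cells, with 49.5 and 1157 CPM in other cells. Plac8 had 0 UMIs in control burst cells, 1.72 CPM in other control cells, 61.7 CPM in mutant burst cells and 40.3 in other mutant cells. Ms4a4c stood at 86.2, 4.05, 1051 and 106 CPM in the usual order. Cd86, the costimulatory ligand, had the largest ratio of the cytokine and surface list (9.53 CPM and 214 CPM in control and mutant burst cells, log2 4.49, 3.89 to 5.15). Class I genes were higher in 17 of 18 (median 1.68). Genes read only through mutant burst cells, such as Plac8, Cd86 and H2-Q6 (2.78 and 98.2 CPM in control and mutant burst cells), had to be higher. The counts and medians of these lists are therefore partly set by the filter.

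Among genes lower in mutant burst cells, several were lower in other mutant cells as well. Spp1, encoding osteopontin, stood at 1831 CPM in control burst cells, 1396 in other control cells, 207 in mutant burst cells and 278 in other mutant cells. Uchl1, a deubiquitinase, stood at 111, 133, 6.17 and 23 CPM, and the membrane protein gene Emp2 at 88.2, 99.2, 3.09 and 6.58 CPM. Marco, a scavenger receptor, was not, at 104, 44.2, 11.1 and 57.2 CPM. A single control burst cell held 119 of its 263 UMIs, and without that cell the control burst level was 57.9 CPM. With neutrophil- and stromal-marked cells left out, the log2 ratio of burst to other control cells went from 1.24 to 0.36 (0.12 to 0.60). No burst cell was neutrophil-marked or held a UMI of the stromal list. Burst cells are a set share of the library, so a smaller library has fewer of them. This drop in the Marco ratio is therefore not read as separate from the effect of that single cell. Of the chemokines, Ccl12 was lower in mutant burst cells (344 and 163 CPM, log2 −1.08, −1.28 to −0.88). Ccl7 was spread over 70 of 92 control burst cells but found in 21 of 80 mutant burst cells, at 791 and 486 CPM (log2 −0.70, −0.82 to −0.58). A single mutant burst cell held 325 of the 787 Ccl7 UMIs of mutant burst cells. Other mutant cells also lay below other control cells for Ccl7 (log2 −1.20). Of 13 BAF subunits read, Arid1a and the core subunit Smarcc1 (85.0 and 35.2 CPM) were at least 2-fold lower and 0 higher. Between other cells of the libraries 1 of 15 subunits read, Arid1a, was 2-fold lower. Smarcc1 was also lower in mutant burst cells than in other mutant cells (log2 −1.03). In that comparison 5 of 15 subunits lay below and 0 above beyond counting error, with a median log2 ratio of −0.24 beside −0.16 over all genes. Of the 15, 1 was at least 2-fold lower, beside 2.54% of all genes read.

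Control burst cells were also set against the other cells of the mutant library, which carried the interferon-stimulated genes at a higher level than other control cells. Of 5171 genes read, 70 (1.35%) were at least 2-fold higher and 157 (3.04%) lower in control burst cells. Of 51 interferon-stimulated genes 11 were higher and 1 lower (Ifi27l2a, log2 −1.02), with a median of 0.40, so most lay within 2-fold of an ordinary mutant cell. Of 11 chemokines read 7 were higher and 1 lower (Cxcl2, log2 −2.23), with a median of 1.54. Of 7 GTPases 4 were higher and 0 lower (median 1.10). Cxcl9 and Gbp5 were read only through burst cells and had to be higher. For Ccl7, other mutant cells also lay below other control cells (log2 −1.20). Of 15 class I genes 0 were higher and 3 lower at 2-fold (median −0.57), with 3 above and 8 below beyond counting error.

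The burst cells of a library were not uniform. Spearman correlations over burst cells, on UMIs per 10000, are given as a description, since cells of 1 library share its preparation and their depth varied. Ifit1bl1 and AW112010 had a rho of 0.54 in the control (n = 92) and 0.84 in the mutant library (n = 80). Ifit1bl1 and Ccl5 had 0.34 and 0.77, and Ifit1bl1 and Isg15 0.58 and 0.84. Ifit1bl1 and Cxcl10 had 0.17 and −0.24, and Ifit1bl1 and the cycling gene Top2a −0.061 and −0.53. Ifit1bl1 and Cxcl10 both entered the score that chose the cells, so nothing is read from that pair.

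**Figure D5:**
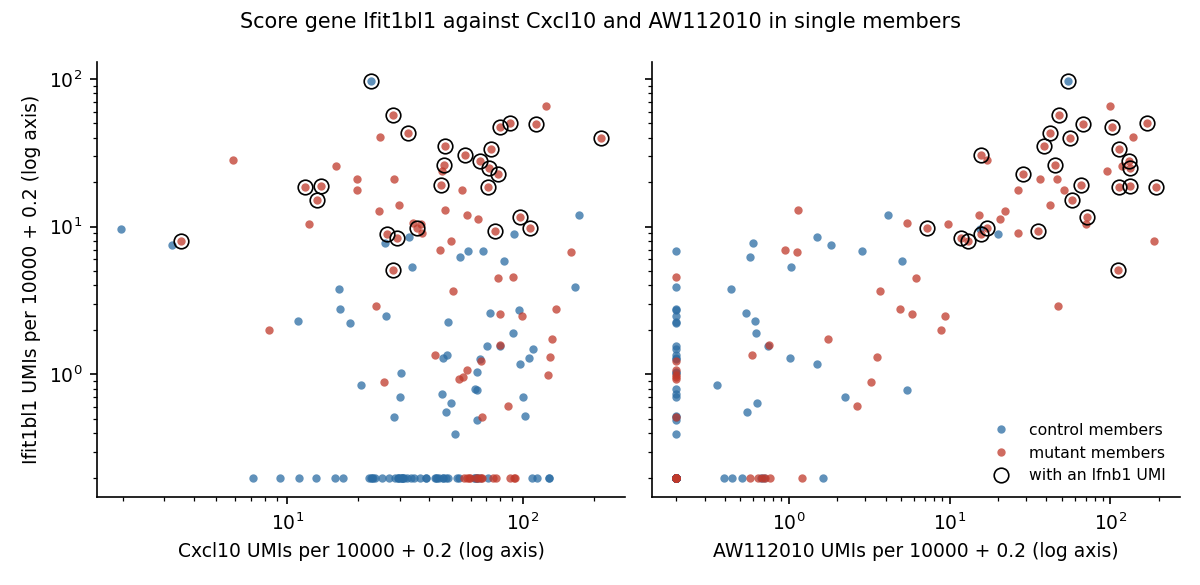
Ifit1bl1 against Cxcl10 (left) and against AW112010 (right) in each burst cell, as UMIs per 10000 plus 0.2 on log axes; circles mark cells with an Ifnb1 UMI. Mutant cells with Ifnb1 lie at high Ifit1bl1 and AW112010 over a wide range of Cxcl10, and 48 of 92 control cells lie at 0 Ifit1bl1.

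The cells were also grouped by their leading score gene, which uses the values that chose them and is a description only. The 17 mutant burst cells led by a gene other than Cxcl10 carried Ccl5 at 11744 CPM and AW112010 at 5056 CPM, against 3795 and 2626 CPM in the 63 led by Cxcl10. Ifnb1 was seen in 9 of the 17 and 17 of the 63. In the control library, the 8 cells led by another gene carried Ccl5 at 2462 CPM and Isg15 at 2740 CPM, against 338 and 1099 CPM in the 84 led by Cxcl10. These levels of the 8 cells rested in large part on 1 cell, which held 301 Ccl5 and 355 Isg15 UMIs. Another of them held 177 Ccl5 UMIs. Ccl2 ran the other way, at 671 CPM against 2099 CPM in control and 1494 CPM against 2479 CPM in mutant cells. Of the control cells led by Cxcl10, 29 of 84 passed the cycling gate, and 0 of the 8 others did.

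A single control cell held Ifnb1. It had the second highest control score (2.30%, 28350 UMIs) and the only Ifnb1 UMIs of the filtered control library, 2 in number. It held 273 of the 608 Ifit1bl1 UMIs of all control burst cells, with 114 UMIs of Ifit2, 91 of Rsad2 and 64 of Cxcl10. It also held 301 UMIs of Ccl5, 355 of Isg15, 153 of AW112010 and 117 of Cxcl9, and 0 of Ccl2 and of Top2a. The control cell with the highest score (2.81%, 22947 UMIs) held 397 UMIs of Cxcl10, 135 of Rsad2, 27 of Ifit1bl1 and 119 of Ccl5. It had no Ifnb1 UMI and passed the cycling gate.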

How the data were processed

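scRNA-Seq counts were deposited by the authors as 1 UMI count matrix per library (Cell Ranger 6.1.0, GRCm39, per the submitters' processing notes and the study's methods), with no further normalization. The strand setting of the counting is not given in the sources used here. Barcodes with fewer than 500 genes, more than 10% mitochondrial UMIs or fewer than 5000 UMIs were removed. Doublets were scored against simulated doublets and kept. Counts were summed over burst cells and over other cells and scaled to CPM, with exact Poisson, conditional or Clopper-Pearson 95% intervals, in Python 3.11.15 with scipy 1.17.1. The code was tested on simulated data. No test between groups was possible with 1 library per group and cells chosen by their counts. Levels at 3′ chemistry were not divided by gene length.

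The burst cells, lists and comparisons were chosen with earlier results of these data known. Named outside the lists were genes from the 8 highest and 8 lowest log2 ratios of each comparison at 20 CPM or more. AW112010, the genes set against Ifnb1 and single cells were picked after their values were seen. Of 358 listed symbols, 4 were not analysed here, and the results of a further gene and of its list are not reported here. GENCODE M39 positions matched 31977 of 32544 gene identifiers. RefSeq promoters are of build GRCm38.p6 and the counts of GRCm39, so their coordinates differ. Alternatives changed the share of cells taken, the score genes, the filters, the scaling and the thinning depth. One more, leaving out cells with at least 1% neutrophil or 0.5% stromal marker UMIs, was added after seeing the data.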

Additional observations from a re-analysis of the deposited data

Results flagged for a closer look

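Only listed or named genes that were read in both libraries were searched here. For 10 of these, burst cells lay above other cells in one library and below them in the other, beyond counting error in both. The remaining genes were not searched, so 10 is no count over all genes. How many genes the search covered was not counted, so no share stands beside the 10. In each case the difference between the libraries was not tested, since each group was 1 library, and intervals cover counting error only.

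For Marco, a scavenger receptor of macrophages, the log2 ratio of burst to other cells was 1.24 for control and −2.36 for mutant cells, a difference (mutant minus control) of −3.60 (−4.38 to −2.92). In the control library 119 of 263 Marco UMIs lay in 1 burst cell. For Ctsk, the osteoclast protease, the ratios were −0.87 and 1.08, a difference of 1.95 (1.46 to 2.43), and 48 of 79 control UMIs lay in 1 burst cell. For C1qa, a complement chain of resident-type macrophages, they were 0.70 and −0.47, a difference of −1.17. Irf8, a factor of the monocyte and dendritic lineage, gave 0.36 and −0.74, a difference of −1.10. The fractalkine receptor gene Cx3cr1 gave 0.39 and −0.60, a difference of −0.99.

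For Lyz2, lysozyme and the locus that carries Cre in the mutant, the ratios were 0.18 and −0.64, a difference of −0.82 (−0.86 to −0.78). Spp1 gave 0.39 and −0.43, also a difference of −0.82. Trem2, a lipid receptor that signals with Tyrobp, gave 0.12 and −0.46, a difference of −0.58. In the opposite direction, the NF-κB target Traf1 gave −0.18 and 0.46, a difference of 0.64, and the chemokine Cxcl2 gave −0.28 and 0.14, a difference of 0.42.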

How the results depend on the processing

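Over 24 alternatives, 147 of 164 recomputed summary values stayed within their margin, 17 moved and 0 changed direction. Of 2218 recomputed log2 ratios of 131 named comparisons 1804 stayed, 411 moved and 3 changed sign. No replicate could be left out, and no paired analysis was possible because each group was 1 library. Causes were not tested.

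The median of the interferon-stimulated list ranged from 1.95 to 2.29 in the control library, and from 1.06 to 1.26 between the burst cells of both libraries. In the mutant library it went from 1.60 to 1.78 with the top 1%, 1.24 with the top 3% and 1.78 with median-of-ratios scaling. Genes past 2-fold went from 183 to 359 in the control library with a minimum of 5 CPM and to 5131 with no filter beyond 3 UMIs, where the share of higher genes went from 92.9% to 74.4% and 21.4%. In the mutant library they went from 446 to 742 with the top 1%, 208 with the top 3%, 762 with Cxcl10 left out of the score, 1047 with 5 CPM and 6235 with no filter. The share of higher genes there went from 70.4% to 55.4%, 94.2%, 47.1%, 45.7% and 20.7%. Between burst cells they went from 738 to 1507 with 5 CPM and to 2842 with no filter. The share of mutant burst cells with Ifnb1 went from 32.5% to 17.6% with the top 3%. The osteoclast gate went from 3.26% to 14.1% of control burst cells on unthinned counts. Of mutant burst cells it went from 3.75% to 25% on unthinned counts, 0 when thinned to 2000 UMIs and 12.5% when 2 UMIs were needed. Signs changed for S100a9 in the control library (−5.43 to 1.20) and Ngp in the mutant library (−6.43 to 1.28) without neutrophil- and stromal-marked cells, and for Cdkn1a between burst cells (−0.37 to 0.044) with the top 3%.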
